A study of Mus musculus with 12 samples.

Results

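Cytochromes P450 of the Cyp1, Cyp2 and Cyp3 families other than the Cyp2a and Cyp2b genes were examined in mouse liver after ischemia-reperfusion on 2 diets. Members were taken by symbol: every entry that begins with Cyp1, Cyp2 or Cyp3 and a subfamily letter was kept, and symbols that begin with Cyp2a or Cyp2b and pseudogene symbols ending in -ps were left out. No measured value entered this rule, but it was chosen with earlier results of these data known. This gave 50 of the 25947 entries of the expression table. The 12 libraries came from livers of WT mice, 3 in each of 4 groups: high-fat diet (HFD) with ischemia-reperfusion injury (HFD-IRI), HFD with sham operation (HFD-Sham), normal diet (ND) with ischemia-reperfusion injury (ND-IRI) and ND with sham operation (ND-Sham). Feeding lasted 4 months and was used to make the liver steatotic. In IRI the left and middle branches of the hepatic pedicle were tied for 1 h and reopened for 6 h before tissue was taken, while sham mice had the same surgery without the ligation. The labels give neither strain, sex nor age.

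The P450s of these families are heme enzymes of the endoplasmic reticulum that insert oxygen into drugs, environmental chemicals, steroids, retinoids and fatty acids, drawing electrons from P450 reductase (Por) and cytochrome b5. In the liver they are made mostly by hepatocytes, many of them more strongly around the central vein than around the portal tract. Their transcription is known to depend on liver factors such as HNF4A and on the receptors CAR (Nr1i3), PXR (Nr1i2) and AHR, and many of them are known to fall during inflammation.

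Members lay on 8 chromosomes, with 15 on chromosome 19, where the Cyp2c cluster lies, 9 each on chromosomes 15 and 5, 7 on chromosome 4, 6 on chromosome 7, 2 on chromosome 9 and 1 each on chromosomes 3 and 17. RefSeq promoter sequences (GRCm38.p6, the 250 bases before the annotated start) matched 42 of the 50 members, in 45 windows. The letters CAAAGTCCA, the core of a site bound by HNF4A, stood on either strand in 9 of the 45 windows (20%), against 126 of 32851 promoter windows of all genes (0.384%). TATAAA, the letters of a TATA box, stood on either strand and at any distance from the start in 20 of the 45 (44.4%), against 12.4% of all windows. Some of these lay far from the start, as at -162 in Cyp2c65. The half-site AGGTCA, which nuclear receptors bind, was in 12 (26.7%, against 14%), TTGCNNAA, a C/EBP pattern, in 7 (15.6%, against 9.56%), GCGTG, the AHR core, in 8 (17.8%, against 28.2%) and TTATGTAA, the D-box, in 0 (against 0.819%). AGGTCA and CAAAGTCCA are parts of related sites and can lie side by side, and windows of recently copied genes are not independent. Shown are the windows of 5 members described below. Cyp2e1 and Cyp2c38 were called for a response to IRI that differed with diet. Cyp2c70 rose with IRI, and Cyp2c68 fell on the normal diet. Cyp3a11 was called for diet in both sham and IRI livers. The calls of Cyp2e1, Cyp2c38 and Cyp3a11 named here depended on single libraries. These windows do not stand for all members. Some members fell more than Cyp2c68 on the normal diet and are not shown. Among these, the windows of Cyp3a25, Cyp2c37 and Cyp2c39 lack CAAAGTCCA, and that of Cyp2c69 holds it. Sequences run 5′ to 3′ on the gene's strand, with TATAAA and CAAAGTCCA in capitals, or TTTATA where the TATA letters are on the other strand. The windows are at chr7:140763569-140763818 (plus strand) for Cyp2e1 and, on the minus strand, at chr19:39463076-39463325 for Cyp2c38, chr19:40187287-40187536 for Cyp2c70, chr19:39741102-39741351 for Cyp2c68 and chr5:145879855-145880104 for Cyp3a11. The expression values were made on another build, GRCm39, and no coordinate was converted.
Cyp2e1: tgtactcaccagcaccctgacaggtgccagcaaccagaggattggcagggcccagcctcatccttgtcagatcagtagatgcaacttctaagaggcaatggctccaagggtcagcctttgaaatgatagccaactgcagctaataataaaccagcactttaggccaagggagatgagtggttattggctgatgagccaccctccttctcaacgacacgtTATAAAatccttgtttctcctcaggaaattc
Cyp2c38: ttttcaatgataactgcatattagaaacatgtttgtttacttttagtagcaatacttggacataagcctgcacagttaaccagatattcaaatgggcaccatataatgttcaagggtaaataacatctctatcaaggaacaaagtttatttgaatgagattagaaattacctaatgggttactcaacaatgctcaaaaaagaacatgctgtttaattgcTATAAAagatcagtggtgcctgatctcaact
Cyp2c70: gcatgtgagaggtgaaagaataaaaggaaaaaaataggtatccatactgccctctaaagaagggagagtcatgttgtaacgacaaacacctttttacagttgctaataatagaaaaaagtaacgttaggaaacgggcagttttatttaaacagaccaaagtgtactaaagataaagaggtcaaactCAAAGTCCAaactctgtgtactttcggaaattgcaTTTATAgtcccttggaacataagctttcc
Cyp2c68: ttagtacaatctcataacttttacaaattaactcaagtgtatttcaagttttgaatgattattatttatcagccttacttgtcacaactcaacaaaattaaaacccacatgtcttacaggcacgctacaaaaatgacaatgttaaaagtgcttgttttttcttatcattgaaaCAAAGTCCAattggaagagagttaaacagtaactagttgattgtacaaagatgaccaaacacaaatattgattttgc
Cyp3a11: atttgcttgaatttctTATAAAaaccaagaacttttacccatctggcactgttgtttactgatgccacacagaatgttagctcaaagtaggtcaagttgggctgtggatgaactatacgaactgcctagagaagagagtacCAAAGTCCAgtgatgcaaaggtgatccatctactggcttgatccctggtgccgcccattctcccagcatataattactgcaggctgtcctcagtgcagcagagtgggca
Of these 5 windows, those of Cyp2e1, Cyp2c38 and Cyp2c70 held the TATA letters near the start, at -31, -31 and -29, while in Cyp3a11 they lay at -234 and in Cyp2c68 they were not found. The CAAAGTCCA letters lay at -64 in Cyp2c70, -77 in Cyp2c68 and -109 in Cyp3a11. Both members that rose and members that fell carry them, and a match of letters is no evidence that a factor was bound.

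Values are in TPM, the usual length-corrected unit of transcript abundance, in which every library has the same total, so that levels of different genes can be set side by side but depth is unknown and no counting interval can be given. Differences were tested with limma on log2(TPM + 1) for the 13364 genes that reached 1 TPM in 3 or more of the 12 libraries, and a gene was called at a Benjamini-Hochberg adjusted p under 0.05. Fold changes on that scale understate the change of genes near 0. The filter passed 37 members and left 13 out. The labels do not say that replicates came from separate mice, so the p-values measure only the spread between these samples. A single gene tested alone with 3 libraries against 3 could not reach an exact permutation p below 0.1. Median-ratio scaling moved the median of all tested genes from 0.16 to 0.0041 (log2) for IRI on the normal diet, from 0.17 to 0.0063 for the diet in sham livers and from -0.13 to 0.016 for the difference between the IRI effects, so fold changes near 0 in these contrasts move with the scaling. The 95% intervals below are each for a single gene and are not adjusted. All groups were fitted together, so the contrasts of a gene share its estimate of spread. Leaving out a library that is in neither group of a contrast keeps its fold change and alters only its p-values.

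Marker genes moved with IRI. All 6 neutrophil markers rose on both diets, with summed levels of 184 to 492 TPM in HFD-IRI against 5.04 to 12.6 in HFD-Sham, and 217 to 609 in ND-IRI against 15.3 to 19.1 in ND-Sham. All 5 cholangiocyte markers rose too (390 to 1145 TPM in HFD-IRI against 105 to 409 in HFD-Sham, and 220 to 686 in ND-IRI against 40.0 to 90.8 in ND-Sham), and so did 3 of 4 red blood cell markers on the high-fat diet and 4 of 4 on the normal diet (615 to 2126 TPM in HFD-IRI against 72.7 to 118 in HFD-Sham, and 467 to 1462 in ND-IRI against 95.3 to 124 in ND-Sham). Of the 5 Kupffer cell markers, 2 fell on each diet (63.4 to 166 TPM in HFD-IRI against 182 to 306 in HFD-Sham, and 62.6 to 127 in ND-IRI against 170 to 201 in ND-Sham). Of the 5 sinusoidal endothelial markers, 2 (Lyve1 and Pecam1) rose and 1 (Kdr) fell on each diet (115 to 143 TPM in HFD-IRI against 52.5 to 90.4 in HFD-Sham, and 105 to 129 in ND-IRI against 45.7 to 63.7 in ND-Sham). In sham livers 2 of the 6 stellate cell markers were higher on the high-fat diet, at a summed 204 to 238 TPM in HFD-Sham against 169 to 187 in ND-Sham. The 4 hepatocyte markers, which include albumin, summed to 84879 to 97330 TPM in HFD-IRI, 89155 to 102077 in HFD-Sham, 84487 to 111118 in ND-IRI and 93690 to 112250 in ND-Sham, ranges that overlap, and only Apoa1 passed the test, in ND livers alone. The part of these cell types in the P450 differences was not tested, and in bulk liver fewer cells of a type and less RNA per cell cannot be told apart. On the third principal component over all genes (8.13% of the variance) the first library of each normal-diet group lay away from the rest of its group. ND-Sham 1 also held the most adipocyte marker RNA of its group, with 11.6, 0.22 and 0.23 TPM of Adipoq in ND-Sham 1, 2 and 3, and stood apart for the lymphocyte marker Cd79a, at 18.3, 2.29 and 1.89 TPM in the same libraries. Among the members, HFD-Sham 2 stood apart: its score on the first component of the 37 tested members was -0.13, against -3.11 and -2.21 in HFD-Sham 1 and 3 and 0.91 to 2.88 in HFD-IRI.

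Added over all 50 genes, P450 RNA was lower after IRI on both diets. It made up 1.6% ± 0.172 of the library in HFD-IRI against 2.45% ± 0.342 in HFD-Sham, and 1.16% ± 0.147 in ND-IRI against 2.62% ± 0.0856 in ND-Sham (SD, n = 3 each). No IRI library reached the lowest sham library of its diet. Cyp2e1 was the most abundant member in every group, and it carried the largest share of this difference. It made up 55.1% ± 0.79 of the members' RNA in HFD-IRI and 57.6% ± 2.4 in HFD-Sham, but 21.2% ± 0.839 in ND-IRI against 44.4% ± 1.62 in ND-Sham. The Cyp3a genes summed to 1486 ± 112 TPM in HFD-IRI, 2515 ± 368 in HFD-Sham, 2399 ± 615 in ND-IRI and 4679.9 ± 1253 in ND-Sham. The Cyp2d genes summed to 2449 ± 269, 3506 ± 323, 2762 ± 205 and 4606 ± 325 TPM in the same order of groups, and the Cyp2c genes to 1963 ± 317, 2529.7 ± 669, 2248 ± 194 and 3402 ± 505 TPM.

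**Figure D1:**
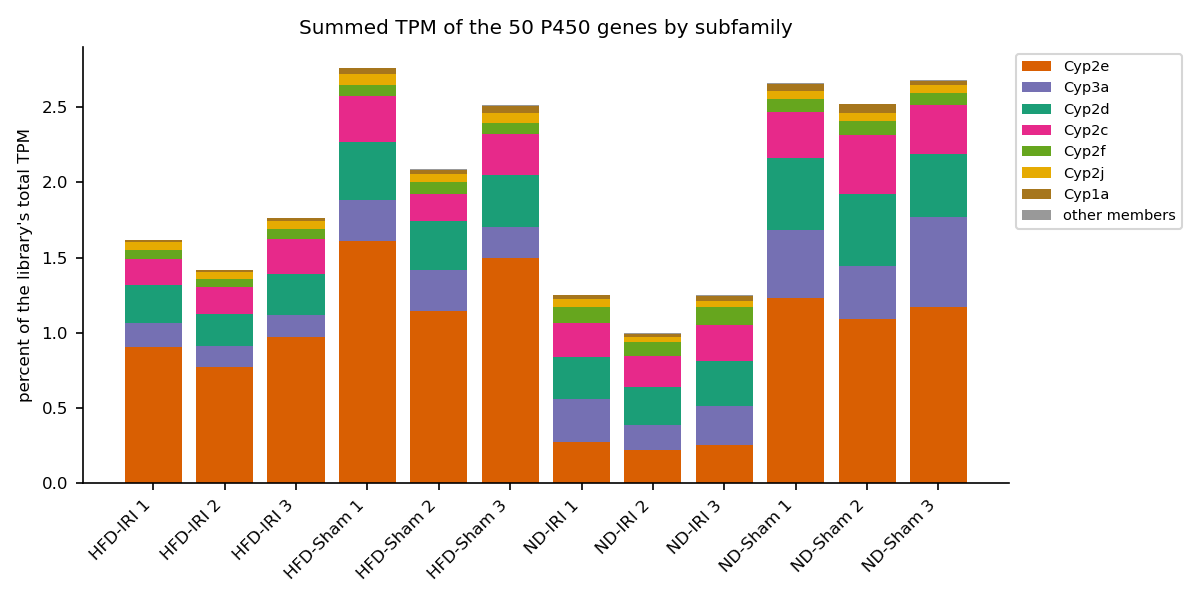
Summed level of the 50 P450 genes in each library, as percent of the library's total TPM, stacked by subfamily. The Cyp2e block, which is Cyp2e1 alone, is thin in the 3 ND-IRI libraries and remains the thickest block in the 3 HFD-IRI libraries.

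How did IRI change these genes? On the high-fat diet 16 of the 37 tested members were called, 13 lower and 3 higher. Over all tested genes 45.9% were called on that diet, 21.9% lower and 24% higher. On the normal diet 22 were called, 20 lower and 2 higher, where 46.8% of all genes were called, 16.6% lower and 30.2% higher. Under median-ratio scaling the all-gene calls on the normal diet were 3269 lower and 3477 higher, in place of 2213 and 4035, and the members' calls were 22 lower and 2 higher. The share of members called was thus near the share of all genes on the high-fat diet (43.2%) and above it on the normal diet (59.5%), and calls ran mainly downward, with a median log2 fold change of -0.35 (all genes 0.012) on the high-fat diet and -0.75 (all genes 0.16) on the normal diet. On both diets 12 members were called, all 12 in the same direction, which is 75% of the calls on the high-fat diet and 54.5% of those on the normal diet. The groups of 21 members did not overlap on the high-fat diet and those of 26 on the normal diet, where the same held for 59.4% and 51.4% of all tested genes. Without HFD-Sham 1 the calls on the high-fat diet came to 11, and without HFD-Sham 2 to 20.

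**Figure D2:**
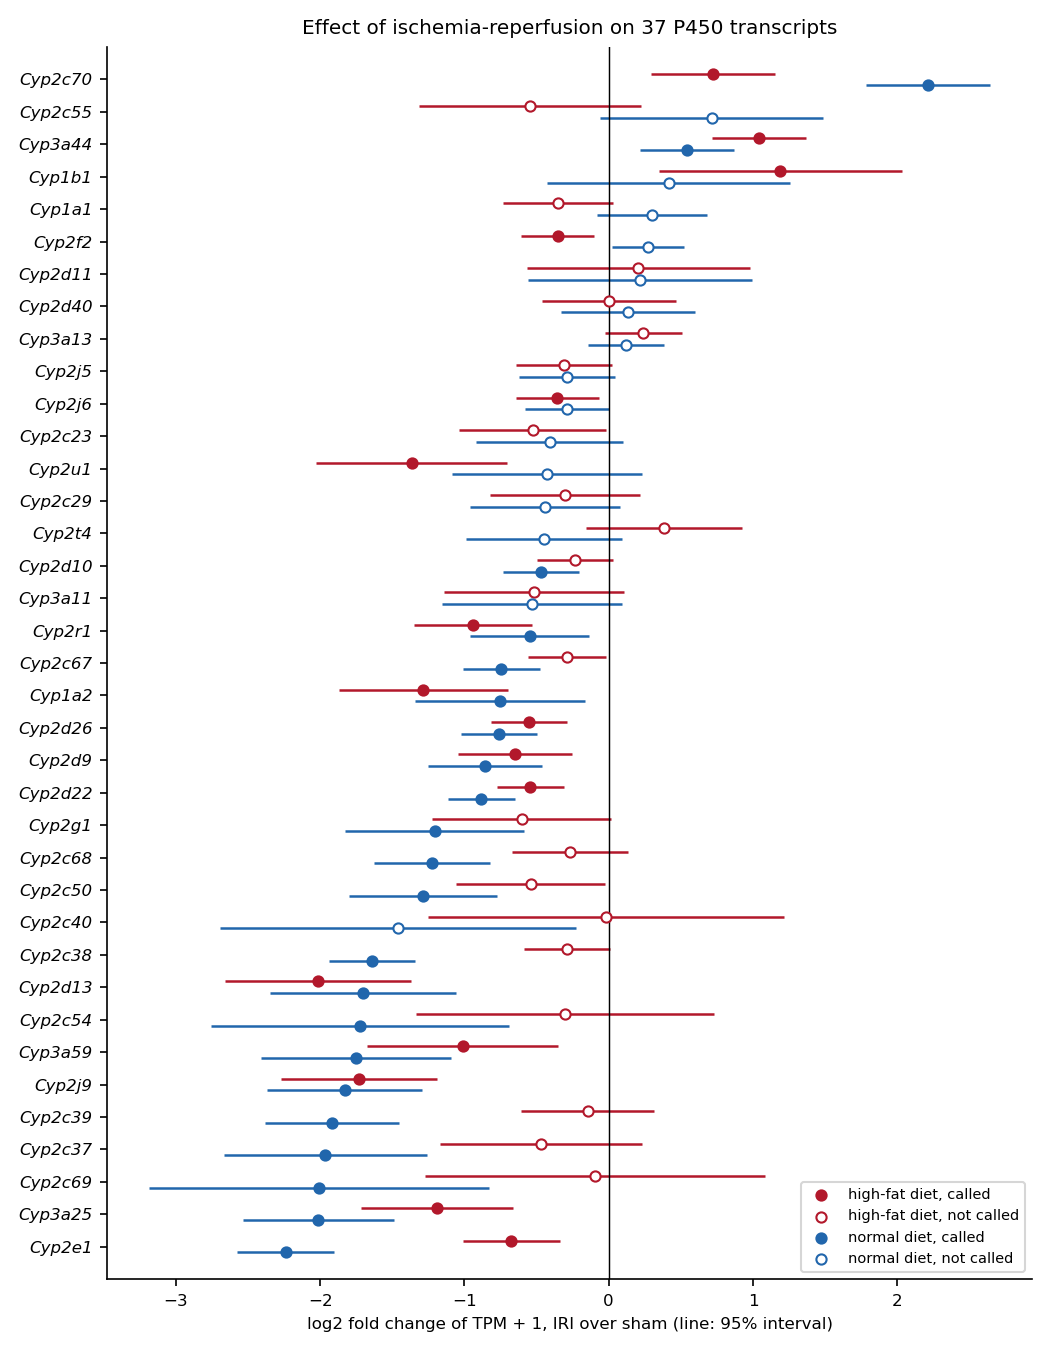
Log2 fold change of TPM + 1, IRI over sham, for the 37 tested members on the high-fat diet (red, upper point) and the normal diet (blue, lower point), with 95% intervals; filled points were called. Cyp2c70 stands at the top at 2.21 on the normal diet and Cyp2e1 at the bottom at -2.24.

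Cyp2e1, which oxidizes ethanol, acetaminophen and other small molecules in pericentral hepatocytes, fell on both diets, with the larger fold change on the normal diet. Its level was 9063, 7723 and 9682 TPM in HFD-IRI, against 16104, 11456 and 14961 TPM in HFD-Sham (log2 fold change -0.68, SE 0.155, adjusted p = 0.00405). In ND-IRI it was 2719, 2164 and 2531 TPM, against 12298, 10923 and 11677 TPM in ND-Sham (log2 fold change -2.24, SE 0.155, adjusted p = 1.83e-06). No library of an IRI group overlapped its sham group, and the mean was 1.61-fold lower in HFD-IRI and 4.71-fold lower in ND-IRI. The ND-IRI libraries lay far below all 9 others.

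The Cyp2c genes, which hydroxylate and epoxidize fatty acids and act on retinoids, bile acids and drugs, gave different counts on the 2 diets. Of the 13 tested, 8 fell and 1 rose on the normal diet, while on the high-fat diet 0 fell and 1 rose by limma's adjusted p. Of all tested genes, 16.6% fell and 30.2% rose on the normal diet, and 21.9% fell and 24% rose on the high-fat diet. At an unadjusted p under 0.05, 3 were lower on the high-fat diet: Cyp2c23, Cyp2c50 and Cyp2c67. The median of the 13 was -0.29 (log2) on the high-fat diet and -1.29 on the normal diet. Cyp2c37 stood at 241, 284 and 399 TPM in HFD-IRI and 612, 234 and 508 TPM in HFD-Sham, which overlap (log2 fold change -0.47, SE 0.323, adjusted p = 0.254). In ND-IRI it stood at 123, 111 and 169 TPM against 413, 653 and 519 TPM in ND-Sham, with no overlap (log2 fold change -1.96, SE 0.323, adjusted p = 0.000461). HFD-Sham 2 decided the first of these: without it the fold change on the high-fat diet was -0.88 with adjusted p = 0.018.

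The close relatives of Cyp2c37 fell on the normal diet too. Cyp2c50 averaged 338 ± 68.3 TPM in HFD-IRI and 503 ± 154 in HFD-Sham (log2 fold change -0.54, SE 0.236, adjusted p = 0.0789), and 253 ± 55.3 in ND-IRI against 612 ± 89.9 in ND-Sham (log2 fold change -1.29, SE 0.236, adjusted p = 0.000956). On the high-fat diet it was called when single libraries were left out, with an adjusted p of 0.0127 without HFD-Sham 2 and 0.0444 without HFD-IRI 3. Cyp2c54 was at 113, 97.8 and 138 TPM in HFD-IRI and 302, 51.3 and 186 TPM in HFD-Sham, and at 143, 122 and 175 TPM in ND-IRI against 400.0, 632 and 438 TPM in ND-Sham, where it fell. The second HFD-Sham library was lower than all 3 HFD-IRI libraries for this gene. Coding sequences of Cyp2c37 and Cyp2c50 are 96.1% identical and those of Cyp2c50 and Cyp2c54 95.2%, so reads can be shared between them. Added together, the 3 genes came to 763 ± 167 TPM in HFD-IRI, 1134 ± 473 in HFD-Sham, 534 ± 112 in ND-IRI and 1631 ± 331 in ND-Sham.

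Cyp2c38 and its neighbour Cyp2c39, a retinoic acid hydroxylase in the mouse, had their lowest levels in ND-IRI. Cyp2c38 was at 86, 89.5 and 102 TPM in HFD-IRI and 109.9, 103 and 127 TPM in HFD-Sham, which did not overlap but did not pass the test (adjusted p = 0.103). It was at 12.7, 11.7 and 14.7 TPM in ND-IRI, against 37.5, 41.7 and 49.4 TPM in ND-Sham, a mean 3.29-fold lower that passed it (adjusted p = 5.22e-06). Cyp2c39 was at 12.1, 6.9 and 11.2 TPM in HFD-IRI and 11.3, 10.8 and 10.7 TPM in HFD-Sham, and at 0.65, 0.71 and 1.52 TPM in ND-IRI against 5.75, 6.91 and 6.18 TPM in ND-Sham (log2 fold change -1.92, SE 0.213, adjusted p = 3.19e-05). The high-fat groups of Cyp2c39 overlap and the normal-diet groups do not. The 2 coding sequences are 94.2% identical, and their sum was 102 ± 9.1 TPM in HFD-IRI, 124 ± 11.8 in HFD-Sham, 14 ± 1.98 in ND-IRI and 49.1 ± 6.18 in ND-Sham.

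Cyp2c67, Cyp2c68, Cyp2c69 and Cyp2c40 form another group of close copies, with 97.1% identity between Cyp2c67 and Cyp2c68 and 97.9% between Cyp2c40 and Cyp2c69. Cyp2c68 averaged 247 ± 53.7 TPM in HFD-IRI and 293 ± 18.3 in HFD-Sham, without a call, and 129.8 ± 13.5 in ND-IRI against 310.0 ± 74.3 in ND-Sham, where it fell. Cyp2c67 averaged 209 ± 17.4 and 255 ± 14.4 TPM in HFD-IRI and HFD-Sham, without a call, and fell to 171 ± 17.2 TPM in ND-IRI against 288 ± 36.9 in ND-Sham. Cyp2c69 was far less abundant, at 0.17, 0.65 and 1.94 TPM in ND-IRI against 3.67, 18.2 and 3.1 TPM in ND-Sham (log2 fold change -2.01, SE 0.541, adjusted p = 0.00974). Its size rested on ND-Sham 2, without which the fold change was -1.29, still called. Cyp2c40, at 0.55 to 16.8 TPM over all libraries, was called on neither diet. The 4 genes summed to 458 ± 55.6 TPM in HFD-IRI, 551 ± 10.9 in HFD-Sham, 304 ± 33 in ND-IRI and 615 ± 124 in ND-Sham.

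Cyp2c70, which makes the muricholic acids of mouse bile, was the only Cyp2c gene that rose. It was at 139.8, 202 and 204 TPM in HFD-IRI, against 100.5, 124 and 102 TPM in HFD-Sham (log2 fold change 0.73, SE 0.197, adjusted p = 0.0104). On the normal diet it was at 606, 673 and 753 TPM in ND-IRI, against 143, 189 and 112 TPM in ND-Sham (log2 fold change 2.21, SE 0.197, adjusted p = 8.05e-06). All 3 IRI libraries exceeded all 3 sham libraries on each diet, and the mean was 1.68-fold higher in HFD-IRI and 4.58-fold higher in ND-IRI. Its closest relative among the tested members, Cyp2c55, shares 69.5% of the coding letters, so that reads of Cyp2c70 are less likely to be assigned to a tested copy than those of the genes above. Members left out of the tests, such as Cyp2c65 and Cyp2c66, were not compared.

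The remaining Cyp2c genes gave no call for IRI. Cyp2c29, an abundant CAR target, averaged 339.8 ± 58.2 TPM in HFD-IRI and 437 ± 155 in HFD-Sham (log2 fold change -0.30, SE 0.239, adjusted p = 0.323), and 428 ± 52.9 in ND-IRI and 581 ± 50.8 in ND-Sham (log2 fold change -0.44, SE 0.239, adjusted p = 0.148). Without HFD-Sham 2 it was called lower on both diets. On the high-fat diet the log2 fold change was then -0.64 (adjusted p = 0.00836). On the normal diet, whose groups do not hold that library, it stayed at -0.44 and only the adjusted p changed, to 0.024. Cyp2c23, an arachidonic acid epoxygenase, had 95% intervals of -1.04 to -0.018 on the high-fat diet and -0.92 to 0.10 on the normal diet, and Cyp2c55 of -1.32 to 0.22 and -0.057 to 1.48 (log2).

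Among the Cyp3a genes, which oxidize many drugs and steroids, Cyp3a25 fell on both diets. It was at 478, 485 and 658 TPM in HFD-IRI, against 1476, 1126 and 1092 TPM in HFD-Sham (log2 fold change -1.19, SE 0.241, adjusted p = 0.00195). Under the normal diet, ND-IRI libraries stood at 677, 350.3 and 445 TPM, against 2044, 1477 and 2299.9 TPM in ND-Sham (log2 fold change -2.01, SE 0.241, adjusted p = 5.49e-05). IRI and sham libraries did not overlap on either diet. Its close copy Cyp3a59 (97.5% identical) averaged 38.9 ± 3.22 TPM in HFD-IRI against 81.8 ± 24.4 in HFD-Sham (log2 fold change -1.01, SE 0.304, adjusted p = 0.0171) and 35.9 ± 13 TPM in ND-IRI against 123 ± 39.6 in ND-Sham. The call of Cyp3a59 on the high-fat diet was lost without HFD-Sham 1 (adjusted p = 0.0743) and without HFD-IRI 1 (adjusted p = 0.0534). The sum of both copies was 579 ± 104 TPM in HFD-IRI against 1313 ± 235 in HFD-Sham, and 527 ± 181 in ND-IRI against 2063 ± 461 in ND-Sham.

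Cyp3a11, the main PXR-induced drug oxidase of mouse liver, did not pass the test for IRI. It was at 890.0, 639.9 and 605 TPM in HFD-IRI and 953, 1385 and 769 TPM in HFD-Sham (log2 fold change -0.52, SE 0.287, adjusted p = 0.158; 95% interval -1.14 to 0.11). On the normal diet it was at 1924, 1147 and 1938 TPM in ND-IRI and 2137, 1801 and 3354 TPM in ND-Sham (log2 fold change -0.53, SE 0.287, adjusted p = 0.149; 95% interval -1.16 to 0.093). Both pairs of groups overlap, and the intervals leave room for a fall of more than a log2 unit. Cyp3a13 was called on neither diet, with intervals of -0.024 to 0.50 on the high-fat diet and -0.14 to 0.39 on the normal diet. Cyp3a44, known as a gene more active in females, rose at a very low level, to 1.11, 1.48 and 1.13 TPM in HFD-IRI against 0.05, 0 and 0.21 in HFD-Sham, and to 0.66, 0.48 and 0.85 TPM in ND-IRI against 0.1, 0.15 and 0.16 in ND-Sham. Without ND-IRI 3 its adjusted p on the normal diet was 0.0511. Its coding sequence is 94.9% identical to that of Cyp3a11, so reads can be shared with that far more abundant gene. The mean of Cyp3a11 was 712 TPM in HFD-IRI against 1036 in HFD-Sham, and 1670 in ND-IRI against 2431 in ND-Sham. The part of shared reads in the values of Cyp3a44 was not tested.

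**Figure D3:**
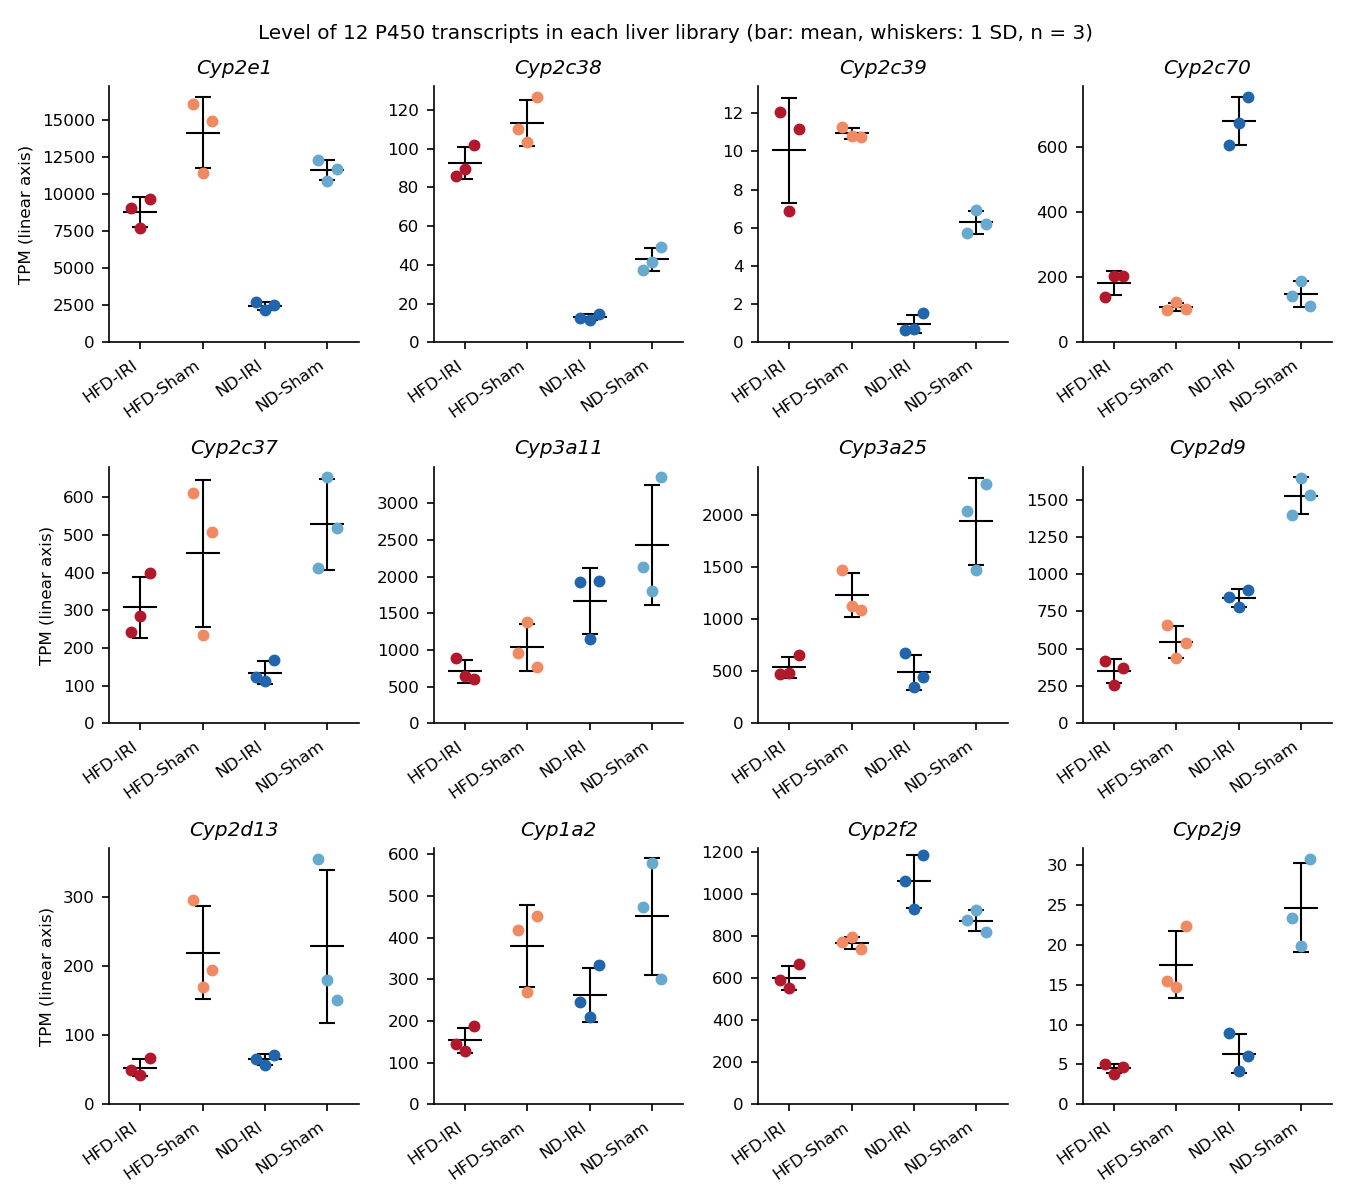
Level of 12 members in each library (points, TPM, linear axes from 0), with the group mean and 1 SD, n = 3. Cyp2e1, Cyp2c38, Cyp2c39 and Cyp2c37 have their lowest points in ND-IRI, Cyp2c70 its highest, and Cyp2d9 and Cyp3a11 are lower in each high-fat group than in the normal-diet group with the same surgery.

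The Cyp2d genes, relatives of a human P450 that oxidizes many drugs, fell in 4 of 7 on the high-fat diet and 5 of 7 on the normal diet. Of all tested genes, 21.9% fell and 24% rose on the high-fat diet, and 16.6% fell and 30.2% rose on the normal diet. On either diet 0 of 7 rose by limma, also at an unadjusted p under 0.05. Cyp2d13 fell the most, to 49.6, 42.7 and 66.8 TPM in HFD-IRI against 296, 169 and 194 TPM in HFD-Sham (log2 fold change -2.01, SE 0.296, adjusted p = 0.00024). In ND-IRI the values were 66.3, 57.1 and 71.9 TPM, against 356, 180.3 and 151 TPM in ND-Sham. The sham libraries varied, but the lowest of them, at 151 TPM, was above the highest IRI library, at 71.9 TPM. No protein-coding transcript was found under the symbol Cyp2d13 in GENCODE M21, and no promoter window in RefSeq. Such a transcript was found for 36 members, all other tested ones. Cyp2d26 averaged 1113 ± 132 TPM in HFD-IRI against 1624 ± 98 in HFD-Sham (log2 fold change -0.55, SE 0.121, adjusted p = 0.00317) and 821 ± 53 in ND-IRI against 1395 ± 154 in ND-Sham (log2 fold change -0.76, SE 0.121, adjusted p = 0.000375). Cyp2d22 averaged 112 ± 8.97 TPM in HFD-IRI against 163 ± 5.01 in HFD-Sham, and 119.6 ± 8.44 in ND-IRI against 222 ± 21 in ND-Sham, and fell on both diets.

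Cyp2d9, a steroid hydroxylase that is more active in male mice, was at 421, 260.1 and 368 TPM in HFD-IRI, against 656, 439.6 and 539.6 TPM in HFD-Sham (log2 fold change -0.65, SE 0.181, adjusted p = 0.0121). In ND-IRI it was at 844, 778 and 896 TPM, against 1398, 1647 and 1529 TPM in ND-Sham (log2 fold change -0.86, SE 0.181, adjusted p = 0.0023). It fell on both diets without overlap, although the adjusted p on the high-fat diet was 0.0565 without HFD-Sham 1. Cyp2d10 fell on the normal diet (log2 fold change -0.47, SE 0.121, adjusted p = 0.00764) and was not called on the high-fat diet (log2 fold change -0.24, SE 0.121, adjusted p = 0.13), with means of 757 ± 66.7 TPM in HFD-IRI, 890.4 ± 38.7 in HFD-Sham, 851 ± 93.8 in ND-IRI and 1176 ± 119.7 in ND-Sham. Cyp2d11, 94.7% identical to Cyp2d10 and at 0.8 to 6.12 TPM, and Cyp2d40, at 39.6 to 77.1 TPM, were called on neither diet. Cyp2d9, Cyp2d10 and Cyp2d11 together came to 1108 ± 145 TPM in HFD-IRI, 1437 ± 146 in HFD-Sham, 1694 ± 145 in ND-IRI and 2703 ± 199 in ND-Sham.

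Of the AHR-controlled Cyp1 genes, Cyp1a2, which metabolizes caffeine and arylamines in pericentral hepatocytes, fell on both diets. It was at 144, 129 and 188 TPM in HFD-IRI, against 419, 269 and 452 TPM in HFD-Sham (log2 fold change -1.28, SE 0.269, adjusted p = 0.00237). Under the normal diet, ND-IRI libraries stood at 246, 208 and 334 TPM, against 473, 579 and 300.1 TPM in ND-Sham (log2 fold change -0.75, SE 0.269, adjusted p = 0.0368). The high-fat groups did not overlap, while ND-Sham 3 lay below ND-IRI 3. On the normal diet, leaving out any of 4 libraries (the first and second of ND-IRI and of ND-Sham) ended the call, with adjusted p between 0.0763 and 0.152, and so did quantile normalization (0.0564), using no filter (0.0794) and leaving out ND-Sham 1 and ND-IRI 1 together (0.138). Cyp1a1, the classic gene induced through AHR, lay at 0.53 to 1.68 TPM over all 12 libraries and was called on neither diet (log2 fold change -0.35, SE 0.175, adjusted p = 0.119 on the high-fat diet; log2 fold change 0.30, SE 0.175, adjusted p = 0.183 on the normal diet).

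Cyp1b1, a P450 found mainly outside hepatocytes, was at 5.43, 3.93 and 2.18 TPM in HFD-IRI, against 0.69, 1.57 and 0.96 TPM in HFD-Sham (log2 fold change 1.19, SE 0.387, adjusted p = 0.025), and rose there without overlap. On the normal diet it was at 2.46, 1.58 and 1.06 TPM in ND-IRI and 2.83, 0.26 and 0.6 TPM in ND-Sham, which overlap (log2 fold change 0.42, SE 0.387, adjusted p = 0.399). The rise on the high-fat diet was lost without HFD-Sham 1, HFD-Sham 3, HFD-IRI 1 or HFD-IRI 2 (adjusted p 0.0617 to 0.0964) and with no filter (0.0608). Without ND-Sham 1, Cyp1b1 rose on the normal diet too, by 0.89 (log2) with adjusted p = 0.035.

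The Cyp2j genes, which epoxidize arachidonic acid, were led by Cyp2j5, at means of 453 ± 54 TPM in HFD-IRI, 560.4 ± 64.9 in HFD-Sham, 383 ± 75.9 in ND-IRI and 461 ± 26.7 in ND-Sham. It was not called on the high-fat diet (log2 fold change -0.31, SE 0.153, adjusted p = 0.12), nor on the normal diet (log2 fold change -0.29, SE 0.153, adjusted p = 0.145), though without ND-IRI 1 it fell there (adjusted p = 0.0321). Cyp2j9 fell strongly, to 5.01, 3.82 and 4.68 TPM in HFD-IRI against 15.5, 14.7 and 22.3 TPM in HFD-Sham (log2 fold change -1.73, SE 0.248, adjusted p = 0.000203). In ND-IRI the values were 8.98, 4.13 and 6 TPM, against 23.3, 19.9 and 30.8 TPM in ND-Sham (log2 fold change -1.83, SE 0.248, adjusted p = 0.000123). No IRI library overlapped sham on either diet. Cyp2j6 averaged 45.3 ± 4.3 TPM in HFD-IRI against 58.5 ± 8.1 in HFD-Sham and was called lower there, but leaving out any of 8 libraries (HFD-IRI 2 and 3, HFD-Sham 1 and 2, ND-IRI 2 and each ND-Sham library) ended the call, with adjusted p up to 0.173 without HFD-Sham 2. So did median-ratio scaling (0.0933), no filter (0.0593), no variance trend (0.0626) and fitting only the groups compared (0.0679).

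Cyp2f2, which activates naphthalene in the airway and is periportal in mouse liver, was at 590.4, 554 and 666 TPM in HFD-IRI, against 770.2, 797 and 740.4 TPM in HFD-Sham (log2 fold change -0.35, SE 0.115, adjusted p = 0.0254). On the normal diet it was at 1064, 932 and 1186 TPM in ND-IRI and 875, 925 and 822 TPM in ND-Sham (log2 fold change 0.27, SE 0.115, adjusted p = 0.0701). The high-fat groups lay apart with IRI lower, and the normal-diet groups lay apart with IRI higher, but only the fall was called. That call was lost without HFD-Sham 1, HFD-Sham 2, HFD-IRI 1 or HFD-IRI 2 (adjusted p 0.0657 to 0.0886) and under median-ratio scaling (adjusted p = 0.101). The higher level on the normal diet was called without ND-IRI 2 (adjusted p = 0.0342) and under quantile normalization (adjusted p = 0.0187). Over all 21 alternatives run, its log2 fold change there went from 0.073 to 0.36, with adjusted p as high as 0.75.

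Cyp2r1, the vitamin D hydroxylase, fell to 4.44, 6.03 and 5.93 TPM in HFD-IRI against 13.1, 12.7 and 8.63 TPM in HFD-Sham (log2 fold change -0.94, SE 0.188, adjusted p = 0.00182). In ND-IRI it was at 10.7, 7.32 and 10.2 TPM, against 13.4, 14 and 14.7 TPM in ND-Sham (log2 fold change -0.55, SE 0.188, adjusted p = 0.0312). The groups did not overlap on either diet, but the call on the normal diet was lost without ND-Sham 2 (adjusted p = 0.068), ND-Sham 3 (0.0858) or ND-IRI 2 (0.136), with the replicate number as a block (0.0556) and with no filter (0.0529). Cyp2u1, a fatty acid hydroxylase, fell on the high-fat diet, to 2.13, 1.92 and 3.2 TPM in HFD-IRI against 12.4, 5.54 and 6.49 TPM in HFD-Sham (log2 fold change -1.37, SE 0.303, adjusted p = 0.00334), and was not called on the normal diet. Cyp2g1, an olfactory gene, was called lower on the normal diet, at 0.18, 0.4 and 0.31 TPM in ND-IRI against 2.21, 3.16 and 0.99 TPM in ND-Sham, levels close to 0 at which the fold change depends on the pseudocount. Cyp2t4, at 0.32 to 2.45 TPM, was called on neither diet.

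What did the diet change? In sham livers 5 of the 37 tested members were called, 4 lower and 1 higher in HFD-Sham than in ND-Sham (13.5%), where 5.84% of all tested genes were called, 1.2% lower and 4.63% higher. Scaling moved these splits: median-ratio scaling gave 207 lower and 275 higher over all genes in place of 161 and 619, and quantile normalization gave 3 lower and 2 higher among the members. In IRI livers 10 were called, 6 lower and 4 higher in HFD-IRI than in ND-IRI (27%), where 3.86% of all genes were called, 1.48% lower and 2.38% higher. Median-ratio scaling gave 4 lower and 3 higher members there, and 411 called genes in all in place of 516. With only the groups compared in the fit, 4 members were lower and 5 higher in IRI livers, and 8 of the 10 calls were kept. The count in sham livers came to 3 without ND-Sham 3 or without HFD-Sham 3, and to 8 with ND-Sham 1 and ND-IRI 1 both left out, an alternative added after seeing the data. Cyp2c38, Cyp2c23, Cyp3a11 and Cyp2d9 were called in both contrasts, each in the same direction. The groups of the 2 contrasts do not share libraries, but the tests share each gene's estimate of spread and are not independent. With only the groups compared in the fit, the calls of Cyp2c23 in sham livers (adjusted p = 0.0518) and of Cyp3a11 in sham (0.0701) and IRI livers (0.0518) were lost. The groups of 18 members did not overlap in IRI livers and those of 16 in sham livers, where the same held for 20.1% and 29.9% of all tested genes.

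**Figure D4:**
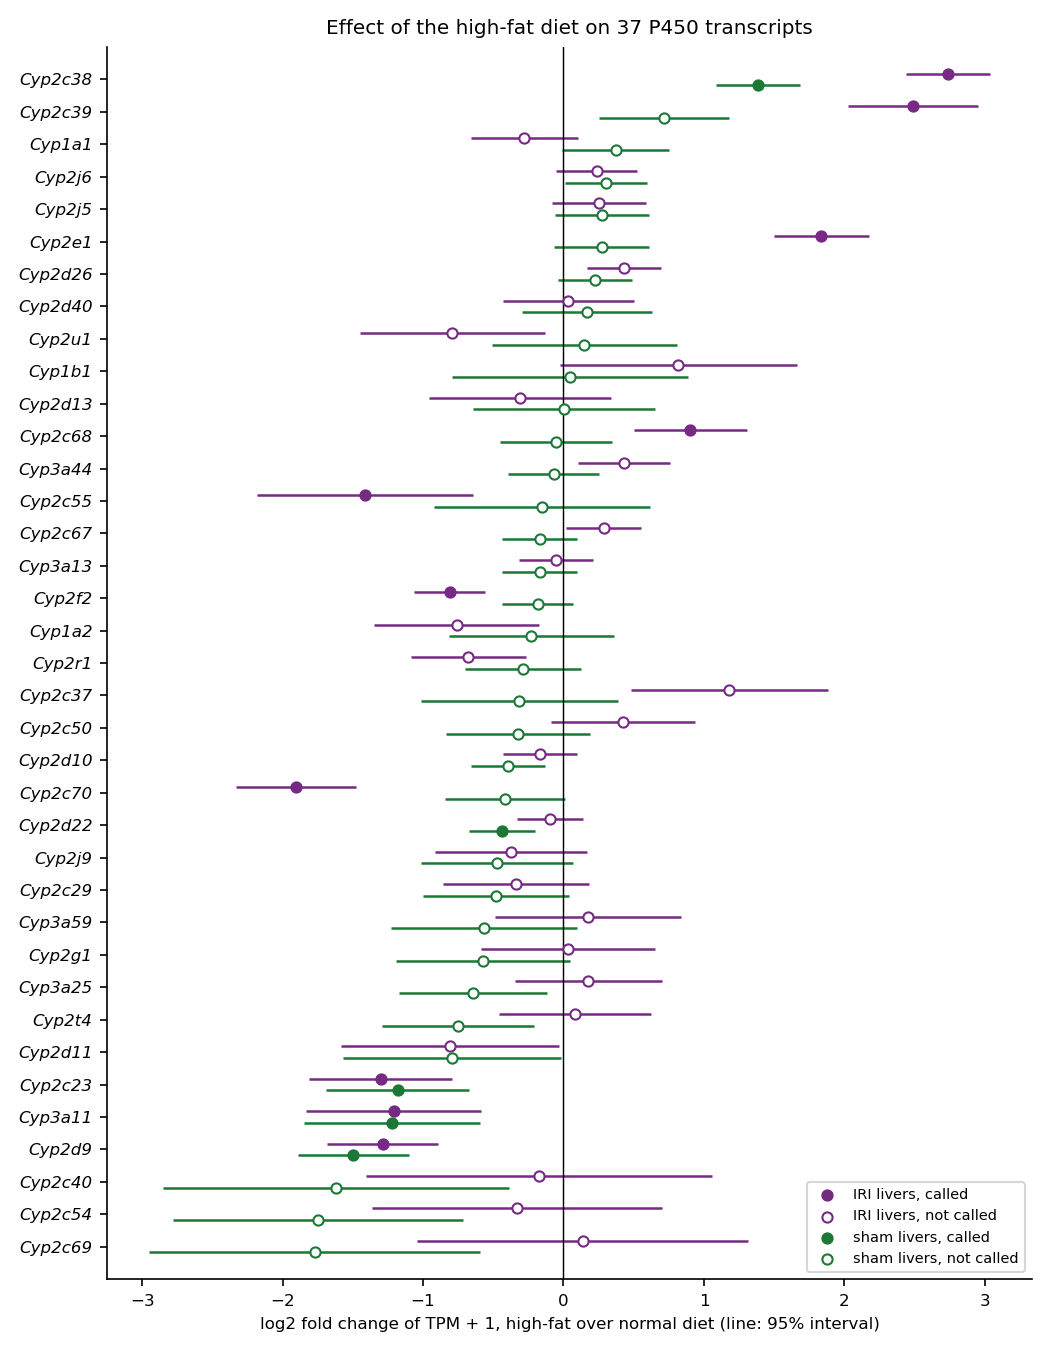
Log2 fold change of TPM + 1, high-fat over normal diet, for the 37 tested members in IRI livers (purple, upper point) and sham livers (green, lower point), with 95% intervals; filled points were called. Cyp2c38 stands at the top, at 2.74 in IRI livers and 1.39 in sham livers.

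Cyp2c38 was the only member called higher on the high-fat diet in sham livers, with means of 113 ± 11.9 TPM in HFD-Sham and 42.9 ± 6.04 TPM in ND-Sham (log2 fold change 1.39, SE 0.137, adjusted p = 0.000198). In IRI livers it averaged 92.4 ± 8.25 TPM in HFD-IRI and 13 ± 1.52 TPM in ND-IRI (log2 fold change 2.74, SE 0.137, adjusted p = 4.55e-07). All 6 high-fat libraries lay above all 6 normal-diet libraries. Cyp2c39 was higher in HFD-IRI than in ND-IRI (log2 fold change 2.49, SE 0.213, adjusted p = 5.19e-05) and did not pass the test in sham livers, where its 95% interval was 0.25 to 1.18 (log2). Cyp2e1 was 3.57-fold higher in HFD-IRI than in ND-IRI (log2 fold change 1.84, SE 0.155, adjusted p = 4.75e-05), and in sham livers the groups overlap (log2 fold change 0.27, SE 0.155, adjusted p = 0.336). Cyp2c68 was higher in HFD-IRI (log2 fold change 0.90, SE 0.185, adjusted p = 0.0185), a call lost without ND-IRI 2, HFD-IRI 1 or HFD-IRI 3 (adjusted p 0.0596 to 0.0809) and under median-ratio scaling (0.108). Cyp2c37 did not pass (log2 fold change 1.18, SE 0.323, adjusted p = 0.0686) but was called without HFD-Sham 2 (adjusted p = 0.0155). That library is in neither IRI group, and the fold change stayed at 1.18.

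Members that were lower on the high-fat diet included the male-biased Cyp2d9, at log2 fold change -1.50, SE 0.181, adjusted p = 0.000878 in sham livers and log2 fold change -1.29, SE 0.181, adjusted p = 0.00217 in IRI livers. The highest of its 6 high-fat libraries, at 656 TPM, was below the lowest of the 6 normal-diet libraries, at 778 TPM. Cyp2c23 averaged 171 ± 54.5 TPM in HFD-Sham against 375 ± 16.1 in ND-Sham (log2 fold change -1.18, SE 0.234, adjusted p = 0.013) and 116 ± 28.1 in HFD-IRI against 285 ± 46.3 in ND-IRI (log2 fold change -1.30, SE 0.234, adjusted p = 0.00917). All of its high-fat libraries were below all of its normal-diet libraries as well, although without ND-Sham 3 the adjusted p in sham livers was 0.0528, and with only the groups compared it was 0.0518. For Cyp3a11 the values given above came to log2 fold change -1.22, SE 0.287, adjusted p = 0.0294 in sham livers and log2 fold change -1.21, SE 0.287, adjusted p = 0.0364 in IRI livers. Its groups did not overlap, but in sham livers the call was lost without ND-Sham 3, HFD-Sham 1 or HFD-Sham 3 (adjusted p 0.0815 to 0.118), and in IRI livers without any HFD-IRI library, HFD-Sham 1, ND-IRI 1 or ND-IRI 3 (adjusted p 0.0531 to 0.126), and with the replicate number as a block (0.0599). It was also lost in sham livers under quantile normalization (0.0742), with no filter (0.0727) and with only the groups compared (0.0701), and in IRI livers under median-ratio scaling (0.0666), with no filter (0.0927), with only the groups compared (0.0518) and with ND-Sham 1 and ND-IRI 1 both left out (0.0905).

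Cyp2c70 was lower in HFD-IRI than in ND-IRI (log2 fold change -1.90, SE 0.197, adjusted p = 0.000247) and was not called in sham livers (log2 fold change -0.42, SE 0.197, adjusted p = 0.249). Cyp2f2 was lower in HFD-IRI as well (log2 fold change -0.81, SE 0.115, adjusted p = 0.00235), with a sham value of log2 fold change -0.18, SE 0.115, adjusted p = 0.384. Cyp2d22 was lower in HFD-Sham (log2 fold change -0.44, SE 0.108, adjusted p = 0.0363), a call lost without any of 7 libraries (HFD-IRI 1, each HFD-Sham library, ND-IRI 3, ND-Sham 1 and 2), with adjusted p up to 0.144 without HFD-Sham 2, with the replicate number as a block (0.0663), under median-ratio scaling (0.0676), without a variance trend (0.0678) and with only the groups compared (0.0663). Cyp2c55, a gene known from colon and induced liver, was at 1.4, 1.46 and 1.5 TPM in HFD-IRI against 9.97, 3.9 and 4.21 TPM in ND-IRI (log2 fold change -1.42, SE 0.353, adjusted p = 0.0464), a call that ended when any library but HFD-Sham 2, HFD-Sham 3 and ND-Sham 1 was left out (adjusted p up to 0.141 without HFD-IRI 1) and under 6 other alternatives (0.0502 without a variance trend to 0.115 with no filter). Cyp2c54 and Cyp2c69 had their groups apart in sham livers but did not pass the test (adjusted p = 0.0518 and 0.0809). Cyp1a1, Cyp1a2, Cyp1b1, Cyp2r1, Cyp2j5 and Cyp3a25 were not called for diet in either set of livers, with adjusted p from 0.0727 for Cyp2r1 in IRI livers to 0.957 for Cyp1b1 in sham livers.

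Did the response to IRI differ between the diets? This was tested as the IRI effect on the high-fat diet minus that on the normal diet. Of the 37 members 2 passed (5.41%), Cyp2e1 and Cyp2c38, both with the less negative effect on the high-fat diet, where 13 of 13364 genes passed (0.0973%), 0.0449% upward and 0.0524% downward. For Cyp2e1 the effects of -0.68 in HFD livers and -2.24 in ND livers differed by 1.56 (SE 0.219, adjusted p = 0.0219). For Cyp2c38 the effects of -0.29 and -1.64 differed by 1.35 (SE 0.194, adjusted p = 0.0245). Both calls were narrow: Cyp2e1 lost its call without HFD-IRI 1, HFD-IRI 3, ND-IRI 2, ND-IRI 3, ND-Sham 2 or ND-Sham 3 (adjusted p 0.0539 to 0.079), Cyp2c38 without any of these 6, HFD-Sham 1, HFD-Sham 2 or HFD-IRI 2 (adjusted p 0.0543 to 0.0948), and neither passed under median-ratio scaling (0.0833 for Cyp2e1 and 0.0734 for Cyp2c38), nor Cyp2e1 with no filter (0.0992). The differences themselves stayed between 1.42 and 1.74 for Cyp2e1 and between 1.25 and 1.61 for Cyp2c38 under every alternative run.

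Cyp2c39 lay just outside the threshold, with a difference of 1.77 (SE 0.301, adjusted p = 0.0502). Cyp2c70 came next, with effects of 0.73 on the high-fat diet and 2.21 on the normal diet that differed by -1.49 (SE 0.278, adjusted p = 0.0645), and it passed without ND-IRI 1 (adjusted p = 0.0478). Cyp2f2 had a difference of -0.63 (adjusted p = 0.158) and Cyp2c37 of 1.49 (adjusted p = 0.233). Among the other Cyp2c genes that fell on the normal diet, the differences did not pass after adjustment over all genes, which does not show that the responses were alike. The unadjusted 95% intervals of the difference lay above 0 for Cyp2c39 (1.12 to 2.43), Cyp2c37 (0.50 to 2.49), Cyp2c68 (0.39 to 1.53), Cyp2c69 (0.24 to 3.57), Cyp2c67 (0.078 to 0.83) and Cyp2c50 (0.019 to 1.47), and included 0 for Cyp2c54 (-0.044 to 2.88). For Cyp3a11 the difference was 0.012 with an interval of -0.87 to 0.89, and for Cyp2d9 0.21 with an interval of -0.35 to 0.77.

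Genes that control or serve these P450s were described from hand-made lists. Of 22 tested regulators, 10 fell and 4 rose with IRI on the high-fat diet, and 8 fell and 3 rose on the normal diet. The share of all tested genes called was 45.9% on the high-fat diet (21.9% lower, 24% higher). On the normal diet it was 46.8% (16.6% lower, 30.2% higher). Nr1i3, the receptor CAR, was at 10.8, 9.68 and 17.9 TPM in HFD-IRI against 114, 61.6 and 89.2 TPM in HFD-Sham, and at 8.41, 4.13 and 5.71 TPM in ND-IRI against 85.1, 67.1 and 61.4 TPM in ND-Sham (log2 fold change -2.70, SE 0.282, adjusted p = 2.3e-05 on the high-fat diet; log2 fold change -3.38, SE 0.282, adjusted p = 5.21e-06 on the normal diet). Nr1i2, the receptor PXR, averaged 50.9 ± 5.27 TPM in HFD-IRI against 164 ± 54.1 in HFD-Sham and 63.8 ± 19.4 in ND-IRI against 151 ± 21 in ND-Sham, and fell on both diets. Dbp, Tef and Hlf, clock-driven activators of P450 genes, fell on both diets, with log2 fold changes of -2.50, -1.53 and -2.82 on the high-fat diet and -3.83, -2.42 and -2.73 on the normal diet, and Cebpb, an inflammatory factor, rose (0.89 and 0.84). Cebpb was not the only regulator with higher levels after IRI. Foxa3 averaged 91.9 ± 11.7 TPM in HFD-IRI against 32.6 ± 6.79 in HFD-Sham, and 68.6 ± 10.7 in ND-IRI against 37.6 ± 15.5 in ND-Sham. For Nfe2l2 the means were 115.8 ± 8.44 and 76.3 ± 15.8 TPM in HFD-IRI and HFD-Sham, and 85.9 ± 13.9 and 44.1 ± 10.1 in ND-IRI and ND-Sham. Hnf4a was called on neither diet, at 491 ± 154 TPM in HFD-IRI, 352 ± 90.4 in HFD-Sham, 495 ± 97.6 in ND-IRI and 442 ± 132 in ND-Sham, with intervals of -0.15 to 1.06 and -0.42 to 0.79 (log2) for IRI on the high-fat and normal diet. For diet, 1 regulator was called in sham livers, Nfe2l2, which was higher in HFD-Sham, and 1 in IRI livers, Esr1, which was lower in HFD-IRI. Of all tested genes, 5.84% were called for diet in sham livers, 3.86% in IRI livers and 0.0973% for the difference between the IRI effects. By limma 0 regulators passed the test of the difference between the IRI effects, and 3, among them Esr1 and Tef, had an unadjusted p under 0.05.

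Of the 8 partners in electron transfer and epoxide hydrolysis, 6 fell with IRI on the high-fat diet and 5 on the normal diet. Of all tested genes, 21.9% fell and 24% rose on the high-fat diet, and 16.6% fell and 30.2% rose on the normal diet. Among the partners the pattern was as follows. By limma 0 rose on either diet, and at an unadjusted p under 0.05 Por alone was higher, on the high-fat diet. Por, which passes electrons to every microsomal P450, was at 520.1, 712 and 484 TPM in HFD-IRI and 277, 366 and 515 TPM in HFD-Sham (log2 fold change 0.59, SE 0.235, adjusted p = 0.0569), and fell to 306, 249 and 349.8 TPM in ND-IRI against 447, 559 and 681 TPM in ND-Sham (log2 fold change -0.89, SE 0.235, adjusted p = 0.00859). The difference between these effects did not pass the test (1.48, SE 0.333, adjusted p = 0.11). Cyb5b, a cytochrome b5 of the outer mitochondrial membrane, did pass it (-1.06, SE 0.165, adjusted p = 0.0394), with 137 ± 20.3 TPM in HFD-IRI, 291 ± 16.7 in HFD-Sham, 157 ± 2 in ND-IRI and 161 ± 11.3 in ND-Sham. This call ended without HFD-IRI 2, HFD-IRI 3, HFD-Sham 1, HFD-Sham 2, ND-IRI 2, ND-IRI 3 or any ND-Sham library. It also ended with the replicate number as a block and without a variance trend. Of 12 genes of heme synthesis and breakdown, 9 fell and 1 rose with IRI on each diet. Alas1, the first enzyme of heme synthesis, averaged 199 ± 26.6 TPM in HFD-IRI against 493 ± 50.01 in HFD-Sham and 179.8 ± 52.3 in ND-IRI against 423 ± 100.03 in ND-Sham. The gene that rose was Hmox1, which breaks heme down, at 1209 ± 275 TPM in HFD-IRI against 86.2 ± 47.9 in HFD-Sham and 1036 ± 129 in ND-IRI against 41.8 ± 23.1 in ND-Sham.

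Of 11 pericentral genes outside the P450s, 6 fell with IRI on the high-fat diet and 8 on the normal diet, 0 rose by limma even at an unadjusted p under 0.05, and their sum was 1874 to 2078 TPM in HFD-IRI, 3523 to 3726 in HFD-Sham, 907 to 1209 in ND-IRI and 2875 to 4509 in ND-Sham. Oat, Gulo and Lect2 were higher in HFD-IRI than in ND-IRI, and 0 of the list passed limma's test of the difference between the IRI effects, with 2 (Gulo and Oat) at an unadjusted p under 0.05. Of 11 periportal genes, 4 fell and 2 rose with IRI on the high-fat diet, 7 fell and 1 rose on the normal diet, and 7 were lower and 1 higher in HFD-Sham than in ND-Sham. Of all tested genes, 21.9% fell and 24% rose with IRI on the high-fat diet, and 16.6% fell and 30.2% rose on the normal diet. In HFD-Sham 1.2% were lower and 4.63% higher than in ND-Sham, and in HFD-IRI 1.48% were lower and 2.38% higher than in ND-IRI. Of the 5 tested AHR targets outside the P450s, 1 was higher and 1 lower after IRI on the high-fat diet, and 2 were higher and 1 lower on the normal diet. Tiparp was the target that rose on both, and Ugt1a6a the one that fell. The part of any of these genes in the P450 differences was not tested.

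The 33 tested P450 genes outside the members served as a comparison. Of them 13 fell and 1 rose with IRI on the high-fat diet and 14 fell and 2 rose on the normal diet. The shares over all tested genes were 21.9% lower and 24% higher on the high-fat diet. On the normal diet they were 16.6% lower and 30.2% higher. With diet, 5 were lower and 6 higher in HFD-Sham than in ND-Sham, and 6 were lower and 8 higher in HFD-IRI than in ND-IRI. Over all tested genes the shares for diet were 1.2% lower and 4.63% higher in sham livers. In IRI livers they were 1.48% lower and 2.38% higher. The 2 of the 33 that passed the test of the difference between the IRI effects were Cyp4a10 (3.69) and Cyp4a14 (3.63), fatty acid omega-hydroxylases induced through PPAR-alpha, both with the less negative effect on the high-fat diet. This test was passed by 0.0973% of all tested genes.

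The 13 members left out of the tests were near or at 0 in these livers. Cyp2j13 was listed at 0 in every library, and Cyp2c66, Cyp2j11, Cyp2j12 and Cyp2w1 were above 0 in a single library each. Cyp2c65, Cyp2d12, Cyp2d34, Cyp3a16 and Cyp3a41b stayed under 1 TPM in every library. Cyp2j8 reached 1.19 TPM in ND-Sham, Cyp2s1 1.44 TPM in HFD-IRI and Cyp3a57 2.18 TPM in HFD-Sham, each above 1 TPM in 1 library. Depth is unknown, so a value of 0 does not show that a gene was silent.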

How the data were processed

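Poly(A) RNA from 12 liver samples was made into strand-specific libraries with dUTP in the second strand, per the labels' protocols. The deposited table holds TPM values made by the authors on GRCm39 (mm39), per the submitters' processing notes. The aligner, the counter, the annotation and whether counting used strand are not given in the sources used here. Each library's TPM values sum to the same total, so depth and counting error are unknown. The 25947 entries are those kept after 2 rows without a symbol or a value were removed, and 18 repeated symbols were kept apart. A second deposited sheet with 6 genes in 23 sample columns whose names match no sample here was not used.

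Tests used limma 3.58.1 in R 4.3.3, with a variance trend, on log2(TPM + 1) of the 13364 genes that reached 1 TPM in 3 or more of 12 libraries. A single fit of the 4 groups gave 5 two-sided contrasts, each adjusted by Benjamini-Hochberg over all 13364 genes at 0.05. The procedure was tested on simulated data. Full statistics were printed, per comparison, for up to 6 called members in each direction, taken by size of change where the groups did not overlap and the higher one averaged 5 TPM or more, for members averaging 500 TPM or more in any group, and for Cyp1a1, Cyp1a2, Cyp1b1, Cyp2e1, Cyp2f2, Cyp2r1 and Cyp3a11. The members, 6 gene lists of 71 genes in all and the markers were chosen with earlier results of these data known. Promoters came from RefSeq (GRCm38.p6), and identities are of the longest reading frames of GENCODE M21 transcripts of the tested members, compared with Biopython 1.88 (Python 3.11.15). Figures were drawn with matplotlib 3.10.9. The 21 alternatives changed the scaling (median-ratio or quantile), the low-value filter (none, or 5 TPM), the pseudocount (0.1), the variance model (no trend), the samples fitted (the compared groups alone, or each library left out) or the design (replicate number as a block). Leaving out both first ND libraries was chosen after seeing the data.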

Additional observations from a re-analysis of the deposited data

Results flagged for a closer look

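The response to IRI differed between the diets for 2 members, by the test of the difference itself (limma, adjusted over all tested genes). The IRI effect on Cyp2e1 was -0.68 on the high-fat diet and -2.24 on the normal diet, a difference of 1.56 on the log2 scale. All 3 IRI libraries lay below all 3 sham libraries on each diet. The IRI effect on Cyp2c38 was -0.29 on the high-fat diet and -1.64 on the normal diet, a difference of 1.35 on the log2 scale, and again all 3 IRI libraries lay below all 3 sham libraries on each diet. On the high-fat diet, however, the effect on Cyp2c38 was not called, and its nearest libraries stood at 101.7 TPM (HFD-IRI 3) and 103.4 TPM (HFD-Sham 2). Groups without overlap were found for 59.4% of all tested genes on that diet and 51.4% on the normal diet. Neither difference passed under median-ratio scaling, and both were lost when certain single libraries were left out, as given above.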

How the results depend on the processing

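Leaving out 1 library at a time gave 11 to 20 called members for IRI on the high-fat diet (16 with all libraries), 20 to 24 on the normal diet (22), 7 to 11 for diet in IRI livers (10), 3 to 6 in sham livers (5) and 0 to 4 for the difference between the effects of IRI (2). The calls of the 6 lists ranged over 37 to 47 (44), 39 to 45 (45), 4 to 12 (9), 6 to 13 (12) and 0 to 2 (1) for the same comparisons. With only the groups compared in the fit, diet in sham livers gave 3 members and diet in IRI livers 3 list genes. Median-ratio scaling gave 4 list genes for diet in IRI livers and 0 members for the difference, and no filter gave 1 member for the difference. Without a variance trend, and with the replicate block, the lists gave 0 calls for the difference. Leaving out both first ND libraries gave 8 members for diet in sham livers, and 4 members and 7 list genes for the difference. Over single members and settings, 2093 values kept direction and call, 105 lost the call, 16 gained it and 22 turned direction, none of them called. For diet in sham livers, Cyp1b1 turned to -0.0071 under median-ratio scaling and -0.0093 under quantile normalization, and ranged from -0.28 to 0.52 with single libraries left out, Cyp2c37 from -0.59 to 0.10 and Cyp1a2 from -0.50 to 0.0015. For diet in IRI livers Cyp3a25 ranged from -0.038 to 0.44. For the difference, Cyp2j5 turned to 0.16 under median-ratio scaling and 0.074 without both first ND libraries (-0.17 to 0.12 with single libraries left out), Cyp3a11 turned to -0.22 under quantile normalization (-0.25 to 0.24), and Cyp2c29 ranged from -0.20 to 0.32. Same-numbered libraries correlated at -0.19 to 0.42 in their deviations from the group means, not above 0.1 in every pair, so pairing by number was not established. In sham livers all 3 pairs were above 0. The replicate block ended 3 member calls, those named above. The cause of these changes was not tested. Depth is unknown, so members near 1 TPM cannot be given a counting error.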
